A study of Mus musculus with 4 samples.

Results

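The genes described here are 10 replication-independent histone variant genes of the mouse, out of 22809 genes in the deposited expression table. They were taken by symbol, under the names of GENCODE release M21, and all 10 were found in the table by Ensembl identifier. They are the linker histone genes H1f0 and H1fx, the H2A variant genes H2afx, H2afz, H2afv, H2afy, H2afy2 and H2afj, and the H3.3 genes H3f3a and H3f3b. Poly(A) RNA of freshly isolated glomeruli, the filtering units of the kidney, was sequenced in 4 libraries from untreated mice at 3 weeks of age. The 2 control libraries are labelled wild type. The other 2 are labelled HDAC knockout, specific to podocytes, the epithelium on the outer face of the filter, and the series title names Hdac1 and Hdac2 as the deficient genes. Each library pooled the glomeruli of 2 mice, the series' design text mentions 2 independent experiments without saying which libraries belong to which, the sources used here do not name the alleles or the driver of the deletion, and the other glomerular cells keep both genes by design. The comparison asks how transcripts of glomeruli differ when podocytes lack both histone deacetylases.

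Most histone mRNA is made from clustered genes in S phase, ends in a stem-loop and carries no poly(A) tail. Variant histones are instead made throughout the cell cycle, and in resting cells, from single genes whose mRNAs are polyadenylated. They replace the canonical histones in nucleosomes with the help of dedicated chaperones and remodelling complexes: H3.3 is laid down in active genes and, by another chaperone, in silent repeats, H2A.Z at promoters, macroH2A in repressed chromatin, and H2A.X is phosphorylated around DNA breaks. H1.0 is a linker histone typical of differentiated, slowly dividing cells. HDAC1 and HDAC2 remove acetyl groups from the tails of these and the canonical histones.

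Values are TPM, that is, reads per unit of gene length on a common total. Gene length here is that of all annotated exons of a gene together. For H2afy it is 6809 bases, against 2046 in the coding transcript used for sequence comparison, and for H2afz 1776 against 1069. For H2afy2 (2175) and H2afv (1633) both lengths are the same. Levels and shares compared between genes therefore depend on the annotation. Whole reads recovered from the TPM (see the processing) numbered between 12876939 and 20943138 per library, and the mitochondrial genome gave 38.7% to 46.5% of the TPM. Hdac1 was at 19.3 and 18.6 TPM in control glomeruli and 22.9 and 22.5 TPM in knockout-labelled glomeruli, and Hdac2 at 20.2 and 24.1 against 23.5 and 20.9 TPM, so neither transcript serves as a check of the labels. The podocyte markers (6 genes, none at 0) summed to 309 and 691 TPM in control glomeruli and 102 and 266 TPM in knockout-labelled glomeruli. The glomerular libraries also held proximal tubule transcripts (6 markers, 6741 and 4679 against 1687 and 2099 TPM), macrophage transcripts (6 markers, 40.6 and 71.9 against 329 and 375 TPM) and proliferation transcripts (6 markers, 41.3 and 65.4 against 105 and 118 TPM). Markers of the parietal epithelium, which lines the capsule around the glomerulus, summed to 142 and 168 TPM in control glomeruli and 668 and 451 TPM in knockout-labelled glomeruli (4 markers), those of the glomerular endothelium to 196 and 448 against 138 and 291 TPM (5 markers) and those of mesangium and smooth muscle to 138 and 172 against 158 and 208 TPM (5 markers). None of these markers was at 0 in all libraries. All 6 proliferation, all 6 macrophage and all 4 parietal markers were above both controls in both knockout-labelled libraries, and all 6 proximal tubule markers were below both. Of all 18612 genes with a mean of at least 1 TPM, 36.7% lay above both controls in this way and 14.3% below. All 5 endothelial markers had negative log2 fold changes with overlapping groups. In both groups the podocyte and endothelial sums were higher in replicate 2 than in replicate 1. The part of these cell type and proliferation transcripts in the histone variant values was not tested. In pooled tissue, fewer cells of a type and less RNA per cell cannot be told apart.

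Transcripts of 4 variant genes were higher in value in the knockout-labelled glomeruli: H2afx, H3f3b, H2afy2 and H2afz were 1.52 to 2.12 times the control mean in TPM, while their close relatives H3f3a, H2afv and H2afy were 1.11 to 1.29 times, H1f0 1.13 times and H2afj 0.970 times. H1fx was 2.50 times the control mean, on few reads. None passed the test across all genes. With limma on log2(TPM + 1) with Benjamini-Hochberg adjustment over 18612 tested genes, 0 of the 10 had an adjusted p under 0.05, beside 0% of all tested genes called higher and 0.00537% called lower, and voom on the recovered reads likewise called 0 of the 10. Taking an unadjusted p under 0.05, 4 of the 10 were higher (0 were lower), beside 13.4% of all tested genes higher and 4.46% lower. Both knockout-labelled values lay above both control values for 8 of the 10, and below for 0, beside 36.7% and 14.3% of all tested genes. The 10 log2 fold changes had a median of 0.48, and all tested genes one of 0.17. That general shift depended on the scaling: median-ratio scaling of the libraries lowered the median of all genes by 0.20, to -0.03, so changes are also given relative to the median of all genes. Under that scaling 5 of the 10 members lay above both controls and 0 below, beside 24.1% of all tested genes above and 25.5% below. By unadjusted p under 0.05, 3 of the 10 members were then higher and 0 lower, beside 1775 genes higher and 1338 lower of the 18612 tested. Quantile normalization gave 6 members above and 0 below, beside 25.3% and 27.2% of all tested genes.

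**Figure D1:**
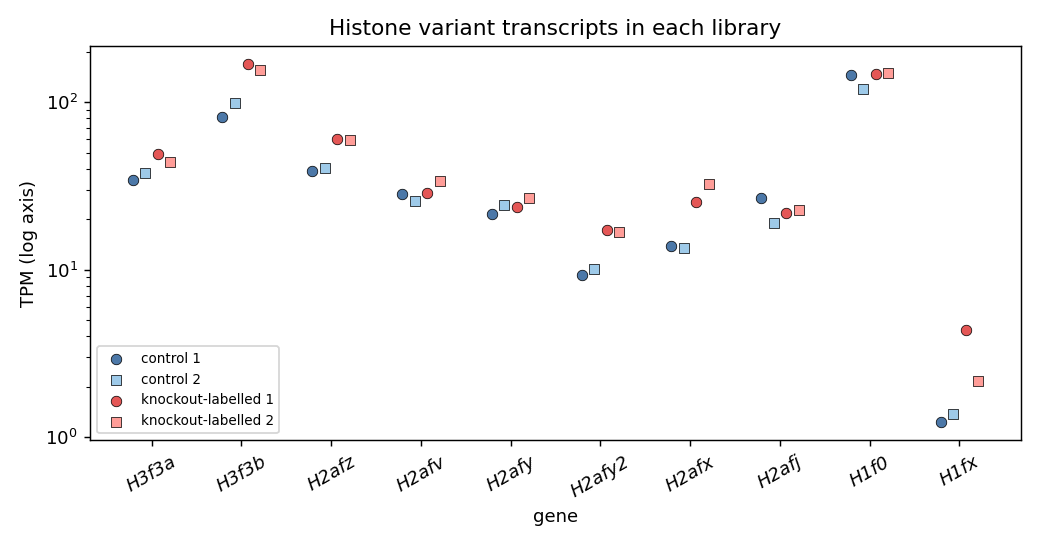
TPM of each histone variant gene on a log axis, with 1 point per library and circles for replicate 1 and squares for replicate 2 of each group. The knockout-labelled points of H3f3b, H2afz, H2afy2 and H2afx lie well above both control points, whereas those of H2afj lie between them.

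The genes differed widely in TPM, and their order depends on the gene lengths used. In the controls H1f0 was the highest, at 144.6 and 119.2 TPM, followed by H3f3b at 81.6 and 99.3 TPM, H2afz at 38.7 and 40.3 TPM and H3f3a at 34.4 and 37.7 TPM. H2afv (28.5 and 25.8 TPM) and H2afj (26.7 and 19.0 TPM) overlapped, as did H2afj and H2afy (21.5 and 24.2 TPM). H2afx (13.8 and 13.4 TPM), H2afy2 (9.28 and 10.1 TPM) and H1fx (1.23 and 1.38 TPM) came last without overlap. In knockout-labelled glomeruli the order of the leading pair was the reverse: H3f3b, at 169.1 and 154.6 TPM, lay above H1f0, at 147.6 and 149.9 TPM, in both. The 10 transcripts together summed to 400.3 and 390.4 TPM in control glomeruli and 547.0 and 543.0 TPM in knockout-labelled glomeruli, and their sum was 1.38 times as high there. The H3.3 genes supplied most of that gap, with 81.9 of 149.7 TPM.

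H3f3a (chr1:180800832-180813943, minus strand in GRCm38) and H3f3b (chr11:116021912-116027962, minus strand) encode the same H3.3 protein from separate genes. Their coding sequences are 411 bases long each and differ at 95 bases, 81 of them at the third base of a codon, and the longest stretch they share is 23 bases. The start of each coding sequence, bases 1 to 120 in the GENCODE M21 transcripts, is shown because these differences allow reads of the pair to be told apart; capitals mark the 24 bases that differ.
H3f3a: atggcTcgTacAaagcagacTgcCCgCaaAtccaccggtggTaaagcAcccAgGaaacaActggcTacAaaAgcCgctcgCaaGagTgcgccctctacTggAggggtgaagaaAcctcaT
H3f3b: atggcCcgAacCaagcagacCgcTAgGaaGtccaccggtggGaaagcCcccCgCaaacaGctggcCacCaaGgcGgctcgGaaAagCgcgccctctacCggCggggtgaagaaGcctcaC
H3f3b had 1625 and 1580 reads in control glomeruli and 3602 and 3848 in knockout-labelled glomeruli. Its TPM of 90.5 ± 12.5 and 162 ± 10.2 (SD, n = 2 each) gave a log2 fold change of 0.84 (SE 0.18, limma adjusted p = 0.119), or 0.67 relative to all genes. Without control replicate 2 it was 0.98 and passed (adjusted p = 0.0325), in a setting that called 1558 genes higher and 522 lower. H3f3a had 806 and 706 against 1234 and 1289 reads. Its levels of 34.4 and 37.7 TPM in control glomeruli and 49.2 and 44.0 TPM in knockout-labelled glomeruli did not overlap, with a log2 fold change of 0.36 (SE 0.16, limma adjusted p = 0.334), or 0.19 relative to all genes.

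Within the pair, the share of TPM from H3f3b was 70.4% and 72.5% in control glomeruli and 77.5% and 77.9% in knockout-labelled glomeruli. A share within a library does not depend on how the libraries were scaled, and here the groups did not overlap. The shares are given as values without a test; for a single value such as a share, an exact two-sided permutation test of 2 against 2 libraries cannot give a p below 1 in 3. The H3.3 transcripts also matched other annotated genes at 95% identity or more over at least 100 bases. The matches covered 32.5% of the H3f3a transcript and 21.3% of the H3f3b transcript. For H3f3a they were 15 pseudogenes and 2 other genes. One of the latter, Gm17275, overlaps H3f3a itself on the opposite strand, so the share for H3f3a is not of copies elsewhere alone. The H3f3a pseudogene H3f3a-ps1 was itself listed at 1.09 and 2.74 TPM in control glomeruli and 3.41 and 3.79 TPM in knockout-labelled glomeruli. On the opposite strand, 22.8% of the exon bases of H3f3a overlap other genes, among them its antisense gene H3f3aos (1.82 and 1.72 against 2.89 and 2.75 TPM), and the strand setting of the counting is not named in those sources, so the H3f3a values are the less certain of the pair.

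**Figure D2:**
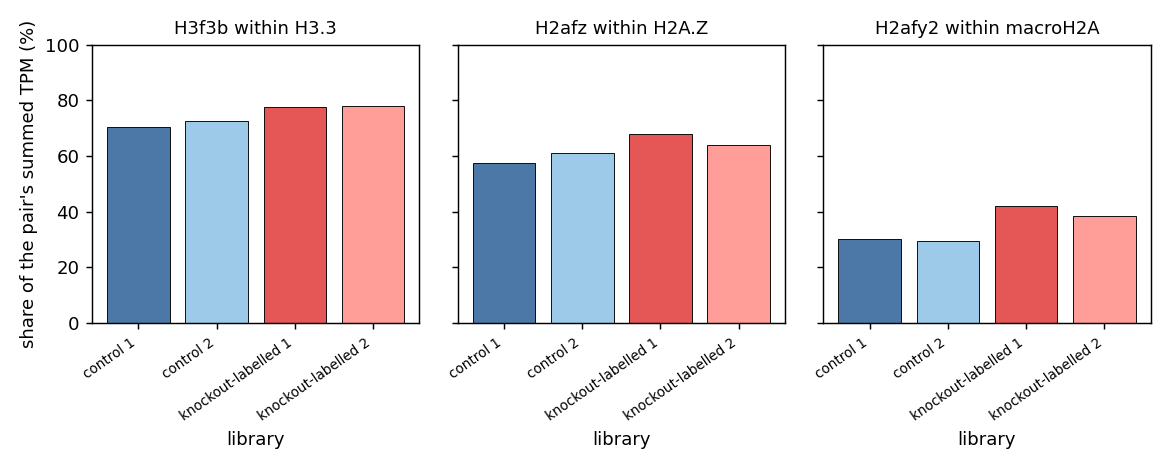
Share of H3f3b in the summed TPM of the H3.3 genes, of H2afz in that of the H2A.Z genes and of H2afy2 in that of the macroH2A genes, in percent, with 1 bar per library. In each panel both knockout-labelled bars are taller than both control bars, and the widest gap is that of H2afy2, from 30.2% and 29.3% to 42.1% and 38.4%.

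H2A.Z is also made from a pair of genes. H2afz (chr3:137864487-137866922, plus strand) encodes H2A.Z.1 and H2afv (chr11:6427229-6444443, minus strand) the near-identical H2A.Z.2. Over 387 coding bases each they differ at 81, and no stretch of more than 14 bases is shared; bases 1 to 120 follow, with the 28 differing bases in capitals, as for H3.3.
H2afz: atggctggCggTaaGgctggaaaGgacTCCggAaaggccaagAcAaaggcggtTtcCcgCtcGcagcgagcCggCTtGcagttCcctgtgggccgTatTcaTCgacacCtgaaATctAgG
H2afv: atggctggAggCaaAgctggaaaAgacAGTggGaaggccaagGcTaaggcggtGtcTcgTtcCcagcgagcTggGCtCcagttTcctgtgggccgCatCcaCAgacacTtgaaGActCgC
H2afz was at 38.7 and 40.3 TPM in control glomeruli and at 60.5 and 59.7 TPM in knockout-labelled glomeruli, from 460, 383, 769 and 887 reads. The replicates of each group lay close together and the groups far apart, with a log2 fold change of 0.59 (SE 0.15, limma adjusted p = 0.145), or 0.43 relative to all genes. H2afv was at 28.5 and 25.8 TPM against 28.5 and 33.9 TPM. Its log2 fold change was 0.19 (SE 0.18, limma adjusted p = 0.639), or 0.02 relative to all genes, and it was -0.04 after median-ratio scaling. The share of H2afz in the pair was 57.6% and 61.0% in control glomeruli and 68.0% and 63.8% in knockout-labelled glomeruli. H2afz is the less certain of these: 90.1% of its transcript matched 4 other annotated genes at 95% identity or more, 2 of which are in the table, while no such match was found for H2afv. The pseudogene H2af-ps was listed at 2.03 and 3.80 against 5.68 and 7.70 TPM.

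The macroH2A genes encode H2A variants with a large globular macro domain attached. H2afy (chr13:56073619-56136361, minus strand), for macroH2A1, was at 21.5 and 24.2 TPM in control glomeruli and 23.6 and 26.9 TPM in knockout-labelled glomeruli. These groups overlapped, and the log2 fold change was 0.14 (SE 0.18, limma adjusted p = 0.746), -0.03 relative to all genes and -0.09 after median-ratio scaling. The values are per gene, so the splice forms macroH2A1.1 and macroH2A1.2 are not separated. H2afy2 (chr10:61738665-61784147, minus strand), for macroH2A2, was at 9.28 and 10.1 TPM in control glomeruli and at 17.2 and 16.8 TPM in knockout-labelled glomeruli, from 135, 117, 268 and 305 reads. It differed by 0.75 on the log2 scale (SE 0.19, limma adjusted p = 0.147), or 0.59 relative to all genes, and the groups lay apart by far more than the replicates. MacroH2A1 transcripts were the more abundant, but the share of H2afy2 was 30.2% and 29.3% in control glomeruli against 42.1% and 38.4%. Exons of the gene Aifm2 on the other strand overlap 10.7% of the exon bases of H2afy2. At 95% identity or more, 62.3% of its transcript matched 3 other genes. They include Aifm2 itself, so that share holds the overlap as well as copies elsewhere.

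H2afx (chr9:44334694-44336077, plus strand) encodes H2A.X, the variant whose tail is phosphorylated near DNA breaks. It was at 13.8 and 13.4 TPM in control glomeruli and at 25.3 and 32.4 TPM in knockout-labelled glomeruli, from 128, 99, 251 and 375 reads, the largest ratio of means after that of H1fx. The log2 fold change was 1.02 (SE 0.20, limma adjusted p = 0.110), or 0.86 relative to all genes. It was between 0.80 and 1.19 over the settings tried, with adjusted p between 0.0563 and 0.631. Its share of the summed TPM of the 6 H2A variant genes was 9.99% and 10.1% in control glomeruli and 14.3% and 16.8% in knockout-labelled glomeruli. Among the proliferation markers, Mki67 was at 11.6 and 23.3 against 34.1 and 49.7 TPM, Top2a at 4.44 and 8.40 against 17.2 and 20.3 TPM and Pcna at 17.6 and 24.2 against 36.3 and 29.3 TPM, with log2 fold changes of 1.27, 1.46 and 0.64. Control replicate 2 was above control replicate 1 for these markers, and H2afx was level between the controls. Knockout replicate 2 was above knockout replicate 1 for H2afx, Mki67 and Top2a, and below it for Pcna. The part of proliferation in the H2afx difference was not tested.

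H2afx stood apart from the other members in its mRNA. A single-exon gene, it held the stem-loop of the clustered histone mRNAs, searched on the sense strand of transcripts as GG, any 2 bases, CTTTT, any base, AG, any 2 bases and CC. The match lies 46 bases after the stop codon and 822 bases before the annotated end of the transcript. Of the 10 members only H2afx had a match, compared with 38 of the 55 protein-coding clustered histone genes of the table (69.1%) and 72 of 21901 protein-coding genes (0.329%). Its site is shown beside those of a pair of clustered genes, with the arms that pair in capitals and the loop in lower case.
H2afx: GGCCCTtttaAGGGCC
Hist1h4h: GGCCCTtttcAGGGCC
Hist1h1c: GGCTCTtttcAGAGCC
The arms of the H2afx site are the same as those of Hist1h4h. Histone mRNAs that end just after such a site carry no poly(A) tail and are not selected in poly(A) RNA, so the H2afx level given here need not be that of all its mRNA.

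H2afj (chr6:136808244-136810074, plus strand) encodes H2A.J, a variant known to accumulate in senescent cells. It was at 26.7 and 19.0 TPM in control glomeruli and at 21.7 and 22.7 TPM in knockout-labelled glomeruli, with both of the latter between the controls. The log2 fold change was -0.02 (SE 0.22, limma adjusted p = 0.969), or -0.19 relative to all genes. The controls alone differed by -0.47 log2 units, more than the 0.39 that was the median size over all tested genes, so the sign of this change rests on single libraries: it was 0.21 without control replicate 1 and -0.26 without control replicate 2. As a share of the summed H2A variant TPM, H2afj was at 19.3% and 14.3% in control glomeruli and 12.3% and 11.8% in knockout-labelled glomeruli. Exons of other genes on the opposite strand overlap 7.70% of the exon bases of H2afj, 10.2% of those of H2afx, 7.93% of those of H1f0 and 7.36% of those of H2afy. Near copies of H2afj and H2afx, over 9.18% and 12.2% of their transcripts, are annotated in 20 and 17 other genes, 0 of them in the table.

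Of the linker histone variants, H1f0 (chr15:79028450-79030504, plus strand), for H1.0, was at 144.6 and 119.2 TPM in control glomeruli and 147.6 and 149.9 TPM in knockout-labelled glomeruli. The knockout-labelled values were above both controls, the nearest by a small margin, and the log2 fold change was 0.18 (SE 0.17, limma adjusted p = 0.649), 0.01 relative to all genes and -0.06 after median-ratio scaling. H1fx (chr6:87980421-87981637, minus strand), for H1.10, was near the limit of 1 mean TPM for testing, at 1.23 and 1.38 against 4.36 and 2.16 TPM. These rest on 10 reads (95% exact Poisson interval 4.80 to 18.4) and 9 reads (4.12 to 17.1) in control glomeruli and 38 (26.9 to 52.2) and 22 (13.8 to 33.3) in knockout-labelled glomeruli, intervals that cover counting error only. The log2 fold change was 0.84 (SE 0.37, limma adjusted p = 0.324) and ran from 0.38 with a pseudocount of 5 to 1.22 without knockout replicate 2, and the interval of knockout replicate 2 overlaps those of both controls in reads. Exons of other genes on the other strand overlap 17.5% of the bases of H1fx. H1fx made up 0.842% and 1.15% of the linker variant TPM in control glomeruli and 2.87% and 1.42% in knockout-labelled glomeruli.

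**Figure D3:**
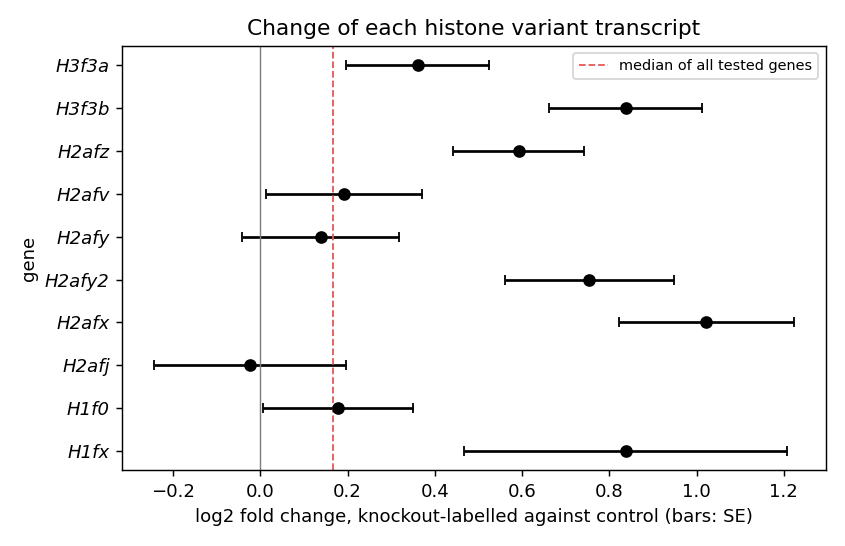
Log2 fold change of each histone variant gene, from log2(TPM + 1) of both groups (positive: higher with the knockout label), with bars of 1 SE from limma and a dashed line at 0.17, the median of all tested genes. H2afx, H3f3b, H2afy2 and H2afz lie to the right of that line by more than 2 SE, and H2afv, H2afy and H1f0 sit on it.

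Across the alternatives, the log2 fold changes of H3f3a, H3f3b, H2afz, H2afy2, H2afx and H1fx were positive in every setting tried, from 0.60 to 0.98 for H3f3b, 0.36 to 0.62 for H2afz and 0.54 to 0.81 for H2afy2. Those of H1f0, H2afv, H2afy and H2afj took both signs. The H2afz values without 1 library were the most tightly grouped, and those of H1fx the widest.

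**Figure D4:**
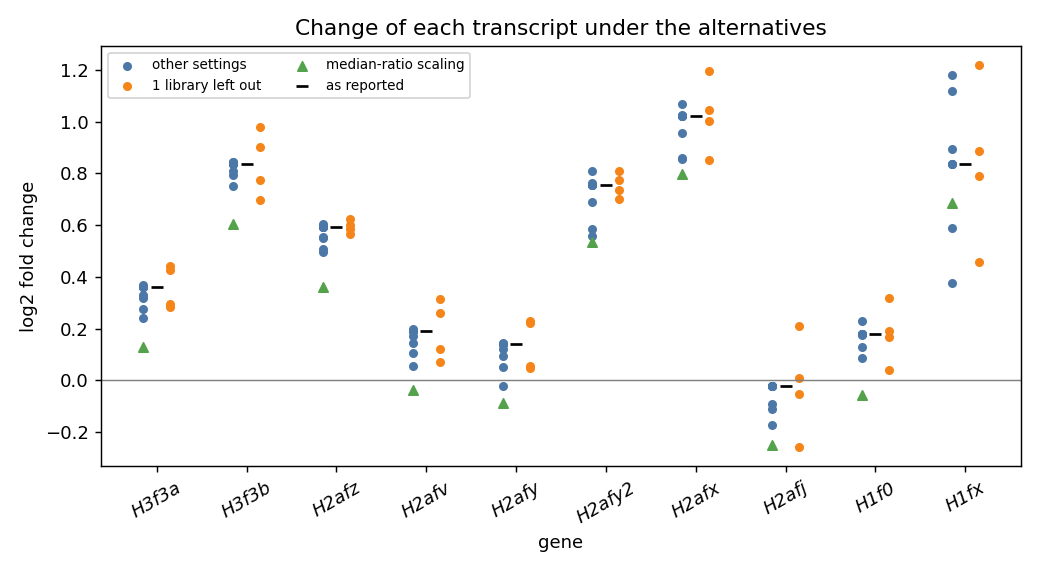
Log2 fold change of each histone variant gene as reported (black bar), with 1 library left out (orange), with median-ratio scaling (green triangle) and under the other settings (blue). Median-ratio scaling gave the lowest value for most genes and put H1f0, H2afv and H2afy below 0, while H3f3b, H2afz, H2afy2 and H2afx stayed at 0.36 or more in all settings.

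The clustered histone genes, read in the same libraries, had a larger median log2 fold change than the variants. They were taken by symbol, and include 2 processed pseudogenes (Hist1h2al and Hist3h2bb-ps) and, of the other variant genes described further on, Hist3h2a and Hist3h2ba. Of 57 such genes tested, 46 had both knockout-labelled values above both controls and 4 below, beside 36.7% and 14.3% of all tested genes, with a median log2 fold change of 1.27. By limma 0 passed the adjusted threshold, and 39 were higher and 1 lower by unadjusted p under 0.05, beside 13.4% and 4.46% of all tested genes. The class medians ran from 0.66 for H4 genes to 1.51 for H2B genes. The 3 genes with the highest mean TPM differed in direction. Hist1h4h was at 225 and 236 TPM in control glomeruli and 210 and 218 TPM in knockout-labelled glomeruli. Hist1h1c was at 97.1 and 88.7 against 148 and 158 TPM, and Hist1h4c at 87.1 and 103 against 81.9 and 89.1 TPM. Without the pseudogenes and the 2 other variant genes, an alternative chosen after seeing the data, 44 of 53 were above both controls and 4 below. The variant share of each class was lower in knockout-labelled glomeruli. Of the summed TPM of H3.3 and clustered H3 genes, H3f3a and H3f3b held 68.9% and 65.7% in control glomeruli and 55.1% and 51.9% in knockout-labelled glomeruli. The 6 H2A variants held 65.4% and 56.3% against 50.6% and 53.3% of that of H2A genes. Hist1h2al alone supplied 31.3 of the 73.2 TPM of the clustered H2A genes in control replicate 1; without it and Hist3h2a, the H2A variants held 78.1% and 63.1% against 55.0% and 59.4%, a mean difference of -13.4 in place of -8.89 percentage points. H1f0 and H1fx held 47.6% and 40.9% against 31.4% and 29.8% of that of H1 genes. In TPM, the clustered H3 genes summed to 52.4 and 71.6 in control glomeruli and 178 and 184 in knockout-labelled glomeruli, while the H3.3 genes summed to 116 and 137 against 218 and 199. These are shares of the poly(A) RNA read, in which clustered histone mRNAs without a tail are depleted, so they are not the shares in the cell, and the part of poly(A) selection was not tested.

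**Figure D5:**
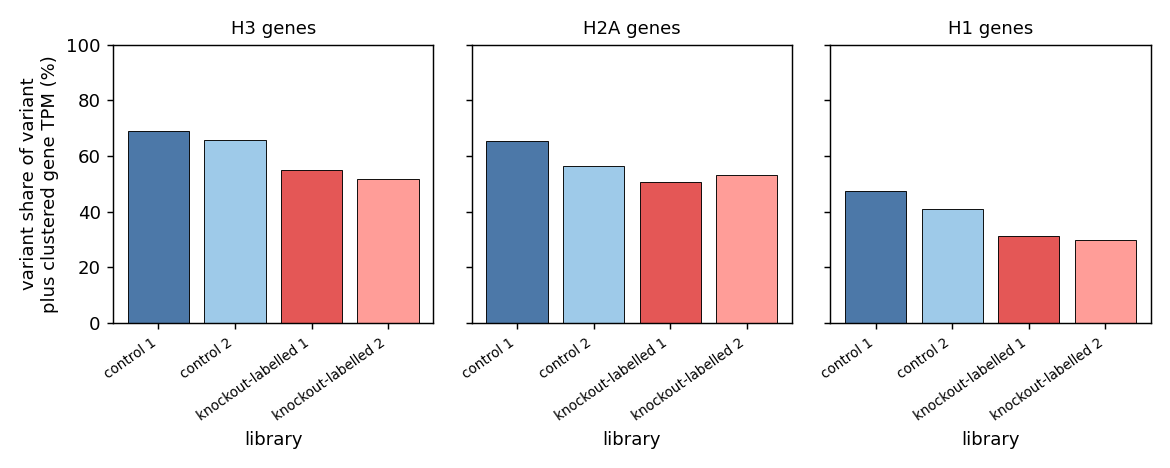
Variant share of the summed TPM of variant and clustered genes of the H3, H2A and H1 classes, in percent, with 1 bar per library. In each class both knockout-labelled bars are shorter than both control bars, from 68.9% and 65.7% to 55.1% and 51.9% for H3.

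The chaperones and remodellers that place these histones were read as a list of 30 genes. None passed the adjusted threshold, 8 reached an unadjusted p under 0.05, each with a higher value, and 21 had both knockout-labelled values above both controls and 0 below, beside the shares over all tested genes given above. The median log2 fold change was 0.29, or 0.12 relative to all genes. The 9 chaperones and partners for H3.3 had a median of 0.23, the 17 genes that handle H2A variants and H2A-H2B 0.31, and the 4 of replication-coupled H3.1 assembly 0.56. Hira, the core of the complex that lays down H3.3 in genes, was at 4.04 and 4.54 TPM in control glomeruli and 4.90 and 4.50 TPM in knockout-labelled glomeruli, and Daxx, which acts with Atrx at repeats, at 14.4 and 16.3 against 20.0 and 25.6 TPM; both were chosen for their roles after their values were seen. By smallest p the list was led by the nucleolar chaperone genes Npm1 and Ncl, the chromatin assembly factor subunit gene Chaf1b and the FACT subunit gene Ssrp1. Npm1 was at 66.3 and 91.0 against 145 and 160 TPM, with a log2 fold change of 0.96 (SE 0.21, limma adjusted p = 0.120), and Ncl at 48.1 and 60.2 against 88.4 and 93.5 TPM (0.75). Chaf1b was at 1.34 and 2.68 against 5.73 and 5.70 TPM (1.19) and Ssrp1 at 35.6 and 39.5 against 55.7 and 54.8 TPM (0.55). Without control replicate 2, Npm1, Ncl and Chaf1b passed (limma adjusted p = 0.0231, 0.0346 and 0.0359) and Ssrp1 did not (0.0622), in the setting that called 1558 genes higher and 522 lower of 18612.

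Of 14 other specialised variant genes looked for, 4 were found in the table and 3 were tested; 2 of these, Hist3h2a and Hist3h2ba, also carry clustered histone gene names and stand in that list too. Cenpa, which encodes the H3 variant of centromeres, was at 1.20 and 3.19 TPM in control glomeruli and 3.93 and 4.73 TPM in knockout-labelled glomeruli (log2 fold change 0.81, SE 0.40, limma adjusted p = 0.367). Hist3h2ba was at 1.46 and 1.83 against 2.50 and 2.53 TPM and Hist3h2a at 2.99 and 5.75 against 3.97 and 3.68 TPM. H2afy3, annotated as a processed pseudogene, was below 1 TPM in all libraries but knockout replicate 2 (2.04 TPM).

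Promoter sequences from RefSeq on GRCm38.p6 were matched for 9 of the 10 members, all but H2afx, and the 250 bases before each start were searched on both strands. The CCAAT box, typical of histone and cell cycle promoters, was searched as CCAAT. It was present in 5 of the 9 (H2afz, H2afv, H2afj, H3f3a and H3f3b), beside 33.8% of 32851 mouse promoters of the same length. TATAAA was present in H3f3b alone of the 9, beside 12.4% of promoters, and the E2F consensus (TTT, a pair of C or G bases, then CGC) in 0 of the 9, beside 1.86%. The H2afv and H2afj promoters hold 4 and 3 CCAAT boxes, the H2afz promoter 2, the H3f3b promoter 4, the H3f3a promoter 1 and the H2afy2 promoter 0. The windows of H3f3b and H2afz are shown as those of genes with higher values. That of H2afv is shown as the H2A.Z gene whose value was near the median of all genes. A relation of the boxes to these changes was not tested. Capitals mark the boxes on either strand.
H3f3b, chr11:116024505-116024754, minus strand: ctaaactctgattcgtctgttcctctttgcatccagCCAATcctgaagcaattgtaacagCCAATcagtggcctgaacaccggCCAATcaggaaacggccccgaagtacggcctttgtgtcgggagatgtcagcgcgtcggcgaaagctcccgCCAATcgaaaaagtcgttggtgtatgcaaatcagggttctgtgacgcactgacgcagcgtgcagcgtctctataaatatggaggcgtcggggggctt
H2afz, chr3:137864237-137864486, plus strand: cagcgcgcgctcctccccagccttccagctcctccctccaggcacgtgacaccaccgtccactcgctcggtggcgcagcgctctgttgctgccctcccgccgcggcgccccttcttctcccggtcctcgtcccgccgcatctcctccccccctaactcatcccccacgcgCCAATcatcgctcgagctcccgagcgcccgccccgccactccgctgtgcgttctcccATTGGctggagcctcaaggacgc
H2afv, chr11:6444444-6444693, minus strand: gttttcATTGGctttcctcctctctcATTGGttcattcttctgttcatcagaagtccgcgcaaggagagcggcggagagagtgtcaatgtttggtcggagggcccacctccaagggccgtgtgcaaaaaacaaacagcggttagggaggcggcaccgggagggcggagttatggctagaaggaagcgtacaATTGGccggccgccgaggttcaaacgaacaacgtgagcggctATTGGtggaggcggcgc
In H3f3b the boxes begin 214, 190, 167 and 97 bases before the RefSeq start, and in H2afz 80 and 23 bases before it. These starts need not be those of the GENCODE M21 genes. The windows of H3f3b, H3f3a, H2afy and H2afy2 lie inside the gene bounds given above, and those of H1fx and H2afj overlap them in part. The gene structures divide the members otherwise: H1f0, H1fx, H2afx and H2afj have 1 exon, as clustered histone genes usually do, and the other 6 have 4 to 9 exons in the transcript compared.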

How the data were processed

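Poly(A) RNA was sequenced in 2 control and 2 knockout-labelled libraries. TPM of 22809 genes were deposited by the authors in 1 table. Per the submitters' processing notes, the tools were STAR 2.7.9, featureCounts 2.0.0, fastp 0.20 and DESeq2 1.30.1, without roles, and the build was GRCm38.p6. The sources used here do not name the strand setting, the gene filter or the annotation. Identifiers with versions matched GENCODE M21 for 22176 genes. Multiplied by the exon-union length, the TPM of all of these (97.2% of the table) were whole multiples of 1 step per library (relative tolerance 1e-06), which gave the reads.

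Groups were compared with limma (version 3.58.1, R 4.3.3, eBayes with trend after lmFit), using log2(TPM + 1) of all 18612 genes with a mean of at least 1 TPM, with Benjamini-Hochberg adjustment over all of them and a threshold of 0.05. A fold change on this scale understates that of low genes. The fitting code was tested beforehand on simulated reads with known fold changes. Replicates are separate pools of mice. The members and lists were chosen with earlier results of these data known. The genes named are all members, the 4 of the chaperone list with the smallest p, the other variant genes found, and the 3 proliferation markers and 3 clustered histone genes with the highest mean. Outside that rule, and named after their values were seen, are Hdac1 and Hdac2 as the deleted genes, the pseudogenes and antisense or overlapping genes of members, Hira, Daxx and Atrx for their roles, and the pseudogenes on the clustered histone list. Hist1h4h and Hist1h1c were also chosen, after their values were seen, to show stem-loops. Near copies were sought with blastn on both strands of the GENCODE M21 transcripts, and genes that overlap a member were not left out. Alternatives were a pseudocount of 0.1 or 5, all genes or those with a mean from 5 TPM, median-ratio, quantile and mitochondria-free scaling, eBayes without trend, a replicate block, each library left out, and voom on the reads. Python 3.11.15, pandas 2.3.3, scipy 1.17.1 and matplotlib 3.10.9 were used.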

Additional observations from a re-analysis of the deposited data

How the results depend on the processing

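Of 139 values of the 10 members under 14 alternatives, 133 kept their direction and 6 did not. With median-ratio scaling the log2 fold changes of H1f0, H2afv and H2afy were -0.056, -0.037 and -0.088, the median of the members was 0.25, and 5 members were higher in both knockout-labelled libraries, beside 24.1% of all genes. With quantile normalization H2afy was at -0.021. With 1 library left out, H2afj ran from -0.26 to 0.21 (0.0077 without knockout replicate 1, 0.21 without the first control) and Hist3h2a from -0.49 to 0.27, the latter without the second control. The cause was not tested. Over all genes 0 were called higher and 1 lower; 0 were called lower with quantile normalization, without the trend, without control replicate 1 and by voom on the reads. With 1 library left out, 0 to 1558 genes were called higher and 0 to 522 lower, both highest without control replicate 2, where the lone control is assumed to vary like the knockout-labelled libraries; the median of the members was 0.38 to 0.52, and 8 to 9 of them were higher and 0 to 1 lower in both groups' remaining libraries, beside 43.2% to 65.0% of all genes higher and 19.4% to 35.2% lower. With the replicate number as a block, 0 genes were called higher and 1 lower, and the median of the members was 0.48. The design text speaks of 2 independent experiments, and whether a number marks one is not said; the differences of replicate 2 from 1 correlated at 0.14 between the groups over genes. H1fx was not tested at a mean of at least 5 TPM.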
